A study of Homo sapiens with 12 samples.

Results

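S100 proteins are small calcium-binding proteins that carry a pair of EF-hand motifs. Most of them form dimers that open a binding surface when calcium rises and then take hold of a target protein, such as an annexin, a myosin or a kinase regulator, and several are also released from cells. Many of their genes lie together on chromosome 1, and several are studied in breast cancer for a part in motility and invasion. The 8 members described here (S100A2, S100A4, S100A6, S100A10, S100A11, S100A13, S100A14 and S100A16) were taken by gene symbol from the 24331 features of the deposited expression table, which names 13 further S100 genes. Each member matched 1 feature.

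Expression was measured by RNA-sequencing in MDA-MB-231, a human triple-negative breast cancer cell line with mesenchymal traits. WT cells were compared with ΔCRE cells (labelled KO), in which CRISPR/Cas9 removed part of the core-regulatory element (CRE) of the ETS1 promoter. Both were stimulated with PMA, a phorbol ester that activates protein kinase C, and with the calcium ionophore Ionomycin. The 12 libraries are 2 biological replicates of each genotype at 0, 6 and 24 h. They include no unstimulated cells at 6 or 24 h, so stimulation and time in culture cannot be told apart. The number of clones behind the ΔCRE libraries is not given in the sources used here, so the deletion and a clone cannot be told apart. Values are FPKM, in which fragments are scaled to the length of the transcript and to the mapped fragments of the library, a scale that allows levels of different genes to be compared per length. Tests were run with limma on log2(FPKM + 1), with p-values adjusted over 11256 features by the Benjamini-Hochberg method, and a gene was called at an adjusted p under 0.05. Fold changes on this scale are smaller than those of FPKM itself for genes with low values. In a bulk library, fewer cells of a type and less RNA per cell cannot be told apart.

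ETS1, whose promoter was edited, was at 24.0 and 23.7 FPKM in WT cells at 0 h, 139 and 145 FPKM at 6 h and 36.2 and 39.7 FPKM at 24 h. In ΔCRE cells it was at 16.5 FPKM in replicate 2 at 0 h, 62.8 and 62.2 FPKM at 6 h and 29.3 and 30.7 FPKM at 24 h. The library labelled ΔCRE 0 h replicate 1 stood apart. It held 5.08 FPKM of ETS1, its FPKM values summed to 2.36 times the mean of the other libraries, and its Pearson's r with them across features was between 0.853 and 0.890, against between 0.932 and 0.984 among the other 11. It was therefore left out of the tests and is described separately at the end, and ΔCRE cells at 0 h are represented by 1 library that was assumed to vary like the other groups. In the 11 libraries, steps in the low FPKM values placed the depth between 0.730 and 1.19 times that of WT 0 h replicate 1. The absolute depth is not known, and no counting interval was computed. VIM, a mesenchymal marker, was between 1543 and 2539 FPKM in these 11 libraries, and CDH1, the epithelial cadherin, did not exceed 0.0318 FPKM. Of 12 epithelial genes looked up, 6 were under 1 FPKM in each of them, CDH1 included. Others were expressed: KRT8 (269 to 513 FPKM), KRT18 (347 to 550 FPKM), KRT19 (32.5 to 106 FPKM) and CLDN4 (15.7 to 33.5 FPKM).

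All 8 members lie on the reverse strand of chromosome 1 (hg19), in a pair of groups. S100A10 (151955386 to 151966714) and S100A11 (152004982 to 152009511) stand together, and the rest follow further along in the order S100A6 (153507076 to 153508717), S100A4 (153516095 to 153518282), S100A2 (153533585 to 153538306), S100A16 (153579367 to 153585514), S100A14 (153586732 to 153588808) and S100A13 (153591276 to 153618782). The S100A13 feature is longer than the annotated gene, which ends at 153603836 in the GENCODE annotation for this build. It takes in S100A1 and CHTOP on the opposite strand and 2 long non-coding RNA genes on its own strand. Its values may hold reads of the long non-coding RNA genes whatever the strand setting. S100A1 and CHTOP have features of their own. That of S100A1 was at 0.416 FPKM at most in the 11 libraries, and that of CHTOP has the same midpoint as the S100A13 feature. Other long non-coding RNA genes lie opposite the features of S100A6 and S100A11. The library kit keeps strand, but whether the counting used it is not stated, so reads of genes on opposite strands may not have been separated either.

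The 250 bases before the annotated start are shown for S100A4, which differed between ΔCRE and WT cells, for S100A10 and S100A11, which moved in opposite directions with stimulation, and for S100A2, which holds the only match to the AP-1 motif among the members. They are given on the gene's strand, 5′ to 3′. Capitals mark matches, on either strand, to the AP-1 motif (letters TGANTCA), to the core of the NFAT motif (letters GGAAA) and to the box bound by the TATA-binding protein, which was searched as TATAAA.
S100A4: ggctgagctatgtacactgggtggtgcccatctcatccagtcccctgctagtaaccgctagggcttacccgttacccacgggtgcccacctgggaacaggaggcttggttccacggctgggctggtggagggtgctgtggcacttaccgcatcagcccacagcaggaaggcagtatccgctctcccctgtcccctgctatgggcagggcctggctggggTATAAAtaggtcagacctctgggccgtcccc
S100A10: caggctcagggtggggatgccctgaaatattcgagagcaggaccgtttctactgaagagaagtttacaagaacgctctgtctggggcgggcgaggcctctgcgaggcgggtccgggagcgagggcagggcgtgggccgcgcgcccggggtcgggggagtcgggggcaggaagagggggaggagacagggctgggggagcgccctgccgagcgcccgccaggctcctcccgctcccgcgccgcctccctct
S100A11: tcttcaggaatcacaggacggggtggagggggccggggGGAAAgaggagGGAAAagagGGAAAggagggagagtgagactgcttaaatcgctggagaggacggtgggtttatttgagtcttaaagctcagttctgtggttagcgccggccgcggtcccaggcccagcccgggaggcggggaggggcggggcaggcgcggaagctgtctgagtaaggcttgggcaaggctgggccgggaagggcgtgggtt
S100A2: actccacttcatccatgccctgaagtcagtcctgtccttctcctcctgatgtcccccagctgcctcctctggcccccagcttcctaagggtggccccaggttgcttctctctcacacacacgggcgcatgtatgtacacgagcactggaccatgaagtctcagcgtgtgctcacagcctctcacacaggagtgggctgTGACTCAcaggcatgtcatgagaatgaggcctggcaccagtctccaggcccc
The sequences are from RefSeq (GRCh38.p14) and each matched hg19 once, at chr1:153518283-153518532 for S100A4, chr1:151966336-151966585 for S100A10, chr1:152009481-152009730 for S100A11 and chr1:153538321-153538570 for S100A2. RefSeq lists 12 starts for the 8 members, since S100A2, S100A16 and S100A13 have several.

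The AP-1 motif was found before 1 of the 12 starts, the first of S100A2 at positions -52 to -46, and before 6.57% of all 35116 RefSeq starts. TATAAA was found before 2 of the 12, at -31 to -26 of S100A4 and at -29 to -24 of the second start of S100A13, and before 10.7% of all starts. GGAAA was found before 5 of the 12 and before 55.6% of all, with 3 matches on the forward strand of S100A11 between -212 and -188. The ETS core CCGGAA was found before 1 of the 12, at -178 to -173 of S100A6, and before 14.5% of all. The S100A6 window (chr1:153508468-153508717) lies inside the S100A6 feature. Its matches therefore precede the RefSeq start and not the start of the feature. GGAAA and CCGGAA can share bases, and the S100A6 matches to them did not overlap. None of the 4 motifs lay in the window of S100A10. Such matches describe letters and do not show binding.

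The members spanned more than 3 orders of magnitude in FPKM. S100A6 (calcyclin, a partner of CACYBP) was the highest in each of the 11 libraries, between 1186 and 1634 FPKM with a median of 1363 FPKM. At the other end, S100A14, a protein of epithelial cells, was listed at 0 in WT 0 h replicate 1 and at 0.136 FPKM in replicate 2, at 0.437 and 0.184 FPKM at 6 h and at 0.243 and 0.132 FPKM at 24 h. In ΔCRE cells it was at 0.267 and 0.238 FPKM at 6 h and at 0.439 and 0.435 FPKM at 24 h. Its mean of 0.249 FPKM was below the minimum of 1 FPKM for testing, so 7 of the 8 members were tested.

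The order between these ends changed over the time course. In WT cells at 0 h, S100A10 (523 and 546 FPKM) and S100A11 (482 and 548 FPKM) overlapped, and both were above S100A16 (236 and 263 FPKM) and S100A13 (156 and 174 FPKM). At 24 h, S100A11 was at 815 and 848 FPKM, and S100A16, at 379 and 394 FPKM, was above S100A10, at 292 and 324 FPKM. Lower down, S100A4 was above S100A2 in every WT library. In ΔCRE cells the levels of this pair overlapped at 6 h, and at 24 h S100A4 was below S100A2 in both replicates.

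**Figure D1:**
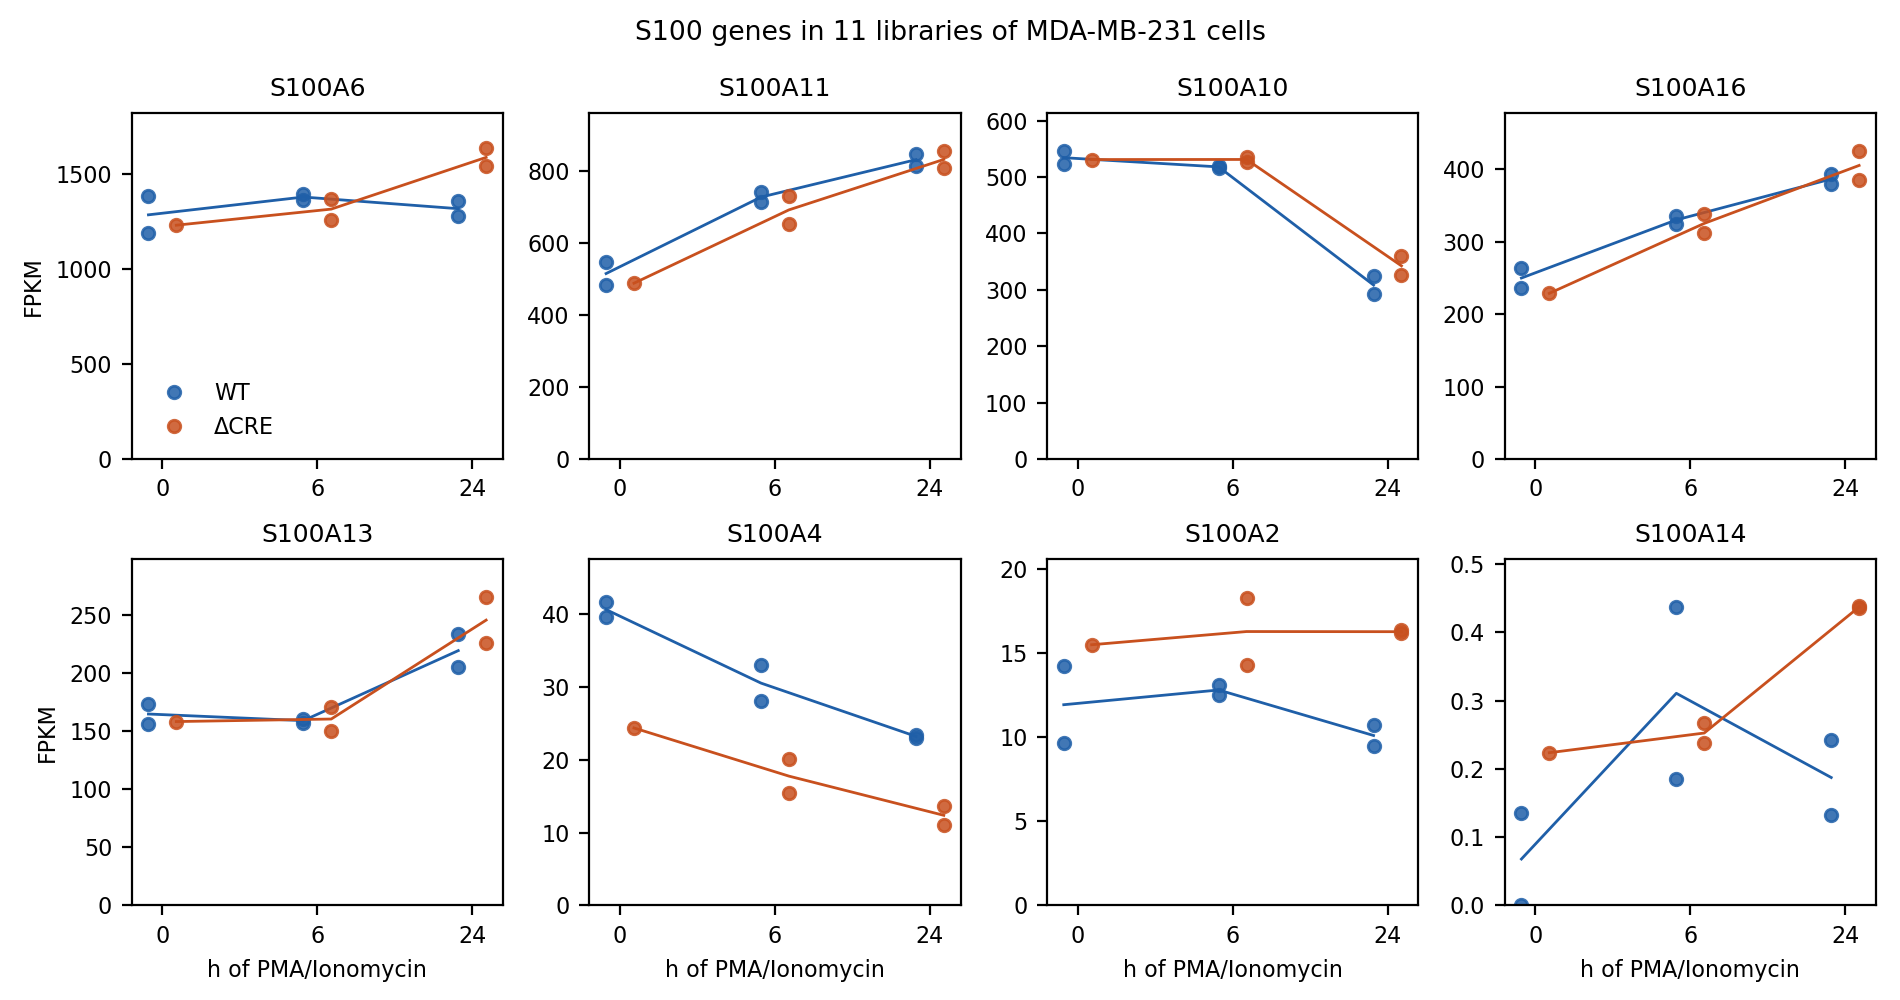
FPKM (vertical axis, from 0, with a separate scale per gene) of the 8 S100 genes against hours of PMA/Ionomycin (horizontal axis, evenly spaced). Each point is 1 library, WT in blue and ΔCRE in orange, lines join group means, and the library labelled ΔCRE 0 h replicate 1 is left out. S100A11 and S100A16 climb in both genotypes, S100A10 drops between 6 and 24 h, and every ΔCRE point of S100A4 lies below both WT points of the same time.

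In WT cells stimulated for 6 h, S100A11 and S100A16 were higher and S100A4 was lower than at 0 h. S100A11, a partner of annexins in membrane repair, went from 548 and 482 FPKM at 0 h to 713 and 741 FPKM at 6 h. The groups did not overlap, and the log2 fold change was 0.50 (SE 0.079, adjusted p = 0.00124). S100A16, a widely expressed member, went from 263 and 236 FPKM to 336 and 324 FPKM, also without overlap (log2 fold change 0.40, SE 0.073, adjusted p = 0.00258). S100A4 (metastasin, known for binding the heavy chain of non-muscle myosin) was at 39.5 and 41.7 FPKM at 0 h and at 28.0 and 33.0 FPKM at 6 h. Its groups were apart as well, with a log2 fold change of -0.40 (SE 0.13, adjusted p = 0.0384). The share of all features whose replicates separate in this way was not computed for any comparison. Such separations therefore describe the values and add nothing to the calls. The other 4 tested members, S100A2, S100A6, S100A10 and S100A13, had log2 fold changes between -0.05 and 0.12 and did not pass. Of all features tested, 23.3% were called higher and 21.1% lower in this comparison beside 2 and 1 of 7 members, and the median log2 fold change of the 7 was 0.11 against 0.00 for all features. The S100A4 call was lost without WT 0 h replicate 1, WT 0 h replicate 2 or WT 6 h replicate 1 (log2 fold change -0.44, -0.37 and -0.29, adjusted p = 0.0857, 0.153 and 0.219) and without either WT 24 h replicate (-0.40, adjusted p = 0.0571).

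By 24 h, 5 of the 7 tested members of WT cells differed from 0 h, 3 of them higher and 2 lower. S100A11 reached 815 and 848 FPKM, 161% of its mean at 0 h (log2 fold change 0.69, SE 0.079, adjusted p = 0.000151). S100A16 reached 394 and 379 FPKM, 155% of its mean at 0 h (log2 fold change 0.63, SE 0.073, adjusted p = 0.000171). Both had thus gone up at 6 h and stood higher still at 24 h in every library. S100A13, which takes part in the release of FGF1 and IL1A from cells, was at 174 and 156 FPKM at 0 h, 161 and 157 FPKM at 6 h and 234 and 205 FPKM at 24 h. Its values at 0 and 6 h overlapped, and both 24 h values lay above them (24 against 0 h, log2 fold change 0.41, SE 0.10, adjusted p = 0.00956). That call was lost without WT 0 h replicate 2 or WT 24 h replicate 1 (log2 fold change 0.33 and 0.32, adjusted p = 0.0690 and 0.0731).

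S100A10 and S100A4 were lower at 24 h. S100A10, which binds annexin A2 and, unlike most S100 proteins, has lost calcium binding, stayed at 546 and 523 FPKM at 0 h and 519 and 516 FPKM at 6 h and then went to 324 and 292 FPKM at 24 h. The 24 h mean was 57.7% of that at 0 h (log2 fold change -0.79, SE 0.068, adjusted p = 3.27e-05), and the log2 fold change from 6 to 24 h was -0.75 (adjusted p = 7.43e-05). S100A4 was at 23.0 and 23.4 FPKM at 24 h, 57.2% of its level at 0 h (log2 fold change -0.78, SE 0.13, adjusted p = 0.00144). Its 24 h values also lay below both 6 h values. S100A10 therefore moved between 6 and 24 h, whereas S100A4 was already lower at 6 h.

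S100A6 and S100A2 did not pass at 24 h. S100A6 was at 1382 and 1186 FPKM at 0 h, 1363 and 1393 FPKM at 6 h and 1358 and 1276 FPKM at 24 h, so the values of the time points overlapped. The log2 fold change from 0 to 24 h was 0.04, with a 95% interval from -0.15 to 0.23. S100A2, a mainly nuclear member, was at 14.2 and 9.64 FPKM at 0 h, 12.5 and 13.1 FPKM at 6 h and 9.47 and 10.7 FPKM at 24 h (log2 fold change at 24 h -0.20, with an interval from -0.57 to 0.17). Its 0 h replicates were further apart than the means of the time points. Without WT 0 h replicate 2 it was called lower (log2 fold change -0.46, adjusted p = 0.0323), and without replicate 1 the value was 0.057. Beside the 3 higher and 2 lower calls among 7 members, 26.5% of all features were called higher and 28.2% lower at 24 h against 0 h. The median log2 fold change of the 7 members was 0.04 against -0.02 for all features.

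Between 6 and 24 h in WT cells, S100A13 (log2 fold change 0.46, SE 0.10, adjusted p = 0.00685) and S100A16 (0.23, SE 0.073, adjusted p = 0.0329) rose, and S100A10 and S100A4 fell (S100A4 -0.38, SE 0.13, adjusted p = 0.0479). S100A11 had a log2 fold change of 0.19 (adjusted p = 0.0766) and did not pass. It was called higher with quantile normalization (0.37, adjusted p = 0.000999), with TPM (0.31, adjusted p = 0.00192) and in a fit to the groups compared (adjusted p = 0.0341). Among all features 20.5% were called higher and 26.3% lower. The S100A16 and S100A4 calls were lost without any one of the WT 6 h and WT 24 h libraries (adjusted p between 0.0753 and 0.148 for S100A16 and between 0.0555 and 0.255 for S100A4), and that of S100A4 without either WT 0 h library too (0.0676 and 0.0677). The S100A13 call was lost without WT 24 h replicate 1 (0.0543).

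In ΔCRE cells, 6 of the 7 tested members differed between 6 and 24 h, 4 of them higher and 2 lower. S100A13 went from 171 and 150.0 FPKM to 265 and 226 FPKM (log2 fold change 0.61, SE 0.10, adjusted p = 0.00152). S100A16 went from 338 and 313 FPKM to 425 and 386 FPKM (0.32, SE 0.073, adjusted p = 0.00752), and S100A11 from 731 and 653 FPKM to 856 and 808 FPKM (0.27, SE 0.079, adjusted p = 0.0219). In each of these 3 genes both 24 h libraries were above both 6 h libraries. S100A6 did the same, from 1369.8 and 1259 FPKM to 1634 and 1539 FPKM (0.27, SE 0.083, adjusted p = 0.0242). The share of all features with such a separation was not computed.

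The same step lowered S100A10, from 526 and 536 FPKM to 359 and 326 FPKM (log2 fold change -0.63, SE 0.068, adjusted p = 0.000145), and S100A4, from 15.5 and 20.1 FPKM to 13.7 and 11.03 FPKM (-0.48, SE 0.13, adjusted p = 0.0168). S100A2 was at 18.3 and 14.3 FPKM at 6 h and 16.2 and 16.3 FPKM at 24 h, a log2 fold change of 0.01 with an interval from -0.36 to 0.38. The background for this step was 22.1% of features higher and 27.5% lower. The median log2 fold change was 0.27 over the 7 members and -0.03 over all features. Without ΔCRE 6 h replicate 2 the calls of S100A4, S100A6, S100A11 and S100A16 were lost (adjusted p = 0.116, 0.147, 0.145 and 0.0558). Without ΔCRE 24 h replicate 1 those of S100A6, S100A11 and S100A16 were lost (0.125, 0.115 and 0.0552), and without ΔCRE 24 h replicate 2 that of S100A4 (0.111). A fit to the groups compared lost S100A4, S100A6 and S100A11 (0.0633, 0.0576 and 0.0588), TPM lost S100A4 (0.0504) and a fit without the filter lost S100A6 (0.0584).

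The 1 ΔCRE library at 0 h that entered the tests gives the start of this course as a value only. It held 1229.7 FPKM of S100A6, 531 FPKM of S100A10, 488 FPKM of S100A11, 229 FPKM of S100A16, 158 FPKM of S100A13, 24.4 FPKM of S100A4, 15.48 FPKM of S100A2 and 0.224 FPKM of S100A14. Against it, the ΔCRE means at 24 h were 64.5% for S100A10, 170% for S100A11, 177% for S100A16, 155% for S100A13, 129% for S100A6, 105% for S100A2 and 50.8% for S100A4.

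**Figure D2:**
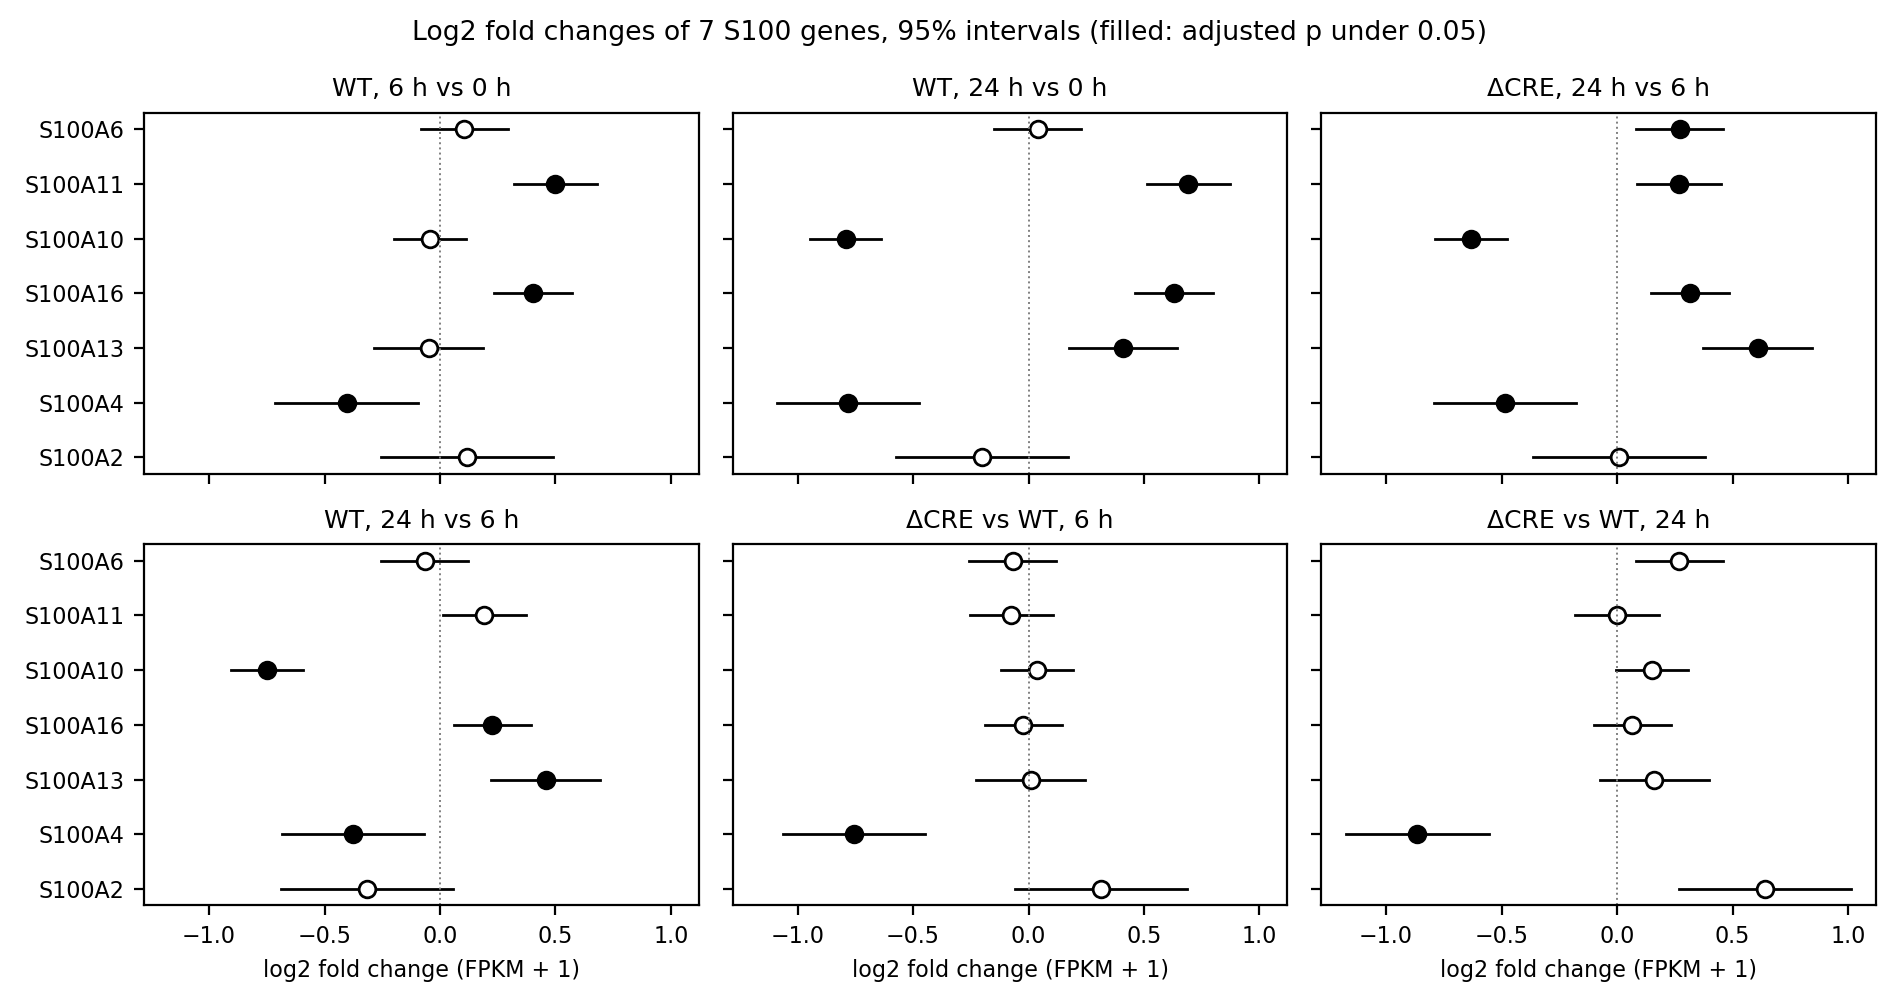
Log2 fold change of FPKM + 1 (horizontal axis) for 7 S100 genes (vertical axis) in 6 comparisons of the limma fit over 11 libraries. Points are estimates, lines are 95% intervals, and filled points have an adjusted p under 0.05. In the ΔCRE against WT panels only S100A4 is filled, at -0.76 at 6 h and -0.86 at 24 h.

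Compared with WT cells, ΔCRE cells had less S100A4. At 6 h it was at 15.5 and 20.1 FPKM in ΔCRE against 28.0 and 33.0 FPKM in WT, which is 58.2% of the WT mean (log2 fold change -0.76, SE 0.13, adjusted p = 0.0109). At 24 h it was at 13.7 and 11.03 FPKM against 23.0 and 23.4 FPKM, or 53.3% (-0.86, SE 0.13, adjusted p = 0.00884). At 0 h the ΔCRE library held 24.4 FPKM against 39.5 and 41.7 FPKM, or 60.0%, and this difference did not pass (-0.71, SE 0.16, adjusted p = 0.0781). Each ΔCRE value was below both WT values of its time. The step from 6 to 24 h in S100A4 had a difference between genotypes of -0.11 on the log2 scale, with an interval from -0.54 to 0.33, and did not pass. After 24 h of stimulation the ΔCRE mean was 30.5% of that of unstimulated WT cells.

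The call of S100A4 at 6 h was lost without WT 6 h replicate 2 (log2 fold change -0.64, adjusted p = 0.0867) and without ΔCRE 6 h replicate 1 (-0.58, adjusted p = 0.0579). At 24 h it was lost without WT 24 h replicate 1 (-0.88, adjusted p = 0.0696), WT 24 h replicate 2 (-0.85, adjusted p = 0.0622) or ΔCRE 24 h replicate 2 (-0.72, adjusted p = 0.0737), and a fit to only the groups compared gave adjusted p = 0.0726 at 6 h and 0.0609 at 24 h.

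S100A4 was the only member called in these comparisons. Of all features, 1.69% were called at 0 h in either direction, 3.62% were higher and 6.22% lower in ΔCRE cells after 6 h, and the shares after 24 h were 2.35% and 3.97%. By limma, 0 members were called at 0 h, with 1 at an unadjusted p under 0.05. The median log2 fold change of the 7 members was -0.06 at 0 h, -0.02 at 6 h and 0.15 at 24 h, against 0.01 over all features at each time.

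S100A2 and S100A6 lay above WT at 24 h without passing. S100A2 was at 16.2 and 16.3 FPKM in ΔCRE cells against 9.47 and 10.7 FPKM in WT cells, with no overlap and a log2 fold change of 0.64 (SE 0.16, adjusted p = 0.0575, interval 0.27 to 1.01). It was also above both WT values in each ΔCRE library at 0 and 6 h (15.48 FPKM, then 18.3 and 14.3 FPKM), with log2 fold changes of 0.37 and 0.31 that did not pass. S100A6 was at 1634 and 1539 FPKM against 1358 and 1276 FPKM at 24 h, again without overlap (0.27, SE 0.083, adjusted p = 0.102, interval 0.08 to 0.46). Both genes passed under quantile normalization, under rescaling to TPM and with the replicate number as a block, whose value stands with the processing alternatives. For S100A10, S100A11, S100A13 and S100A16 the difference at 24 h was between 0.00 and 0.16, and the widest interval, that of S100A13, ran from -0.07 to 0.40.

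The difference between genotypes in the change from 6 to 24 h passed for 0 of the 7 members by limma, with 1 at an unadjusted p under 0.05, and for 0.16% of all features. The member with that p was S100A6, which changed by -0.07 in WT and 0.27 in ΔCRE cells on the log2 scale, a difference of 0.34 (SE 0.12, interval 0.07 to 0.60, adjusted p = 0.601).

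Rescaling to TPM, which removes differences in the FPKM sum, moved the median log2 fold change of all features from 0.00 to -0.12 at 6 h against 0 h in WT cells, and the share of calls that were higher went from 52.5% to 35.0%. The same share went from 43.7% to 64.3% for WT 24 against 6 h, from 44.6% to 60.7% for ΔCRE 24 against 6 h and from 37.2% to 24.7% for ΔCRE against WT at 24 h. Relative to the shifted median S100A11, S100A16 and S100A4 kept their direction and their call at 6 h, and S100A10 was called lower there as well (-0.17, adjusted p = 0.0292).

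Genes of 14 binding partners and secretion cargo of the S100 proteins were counted beside the members, and 12 of them were tested. In WT cells 6 differed between 6 and 0 h (4 up, 2 down) and 6 between 24 and 0 h (3 up, 3 down), beside the background shares given above. ANXA2, the annexin that S100A10 binds, was at 1809 and 1678 FPKM at 0 h, 2425 and 2494 FPKM at 6 h and 2043 and 1992 FPKM at 24 h. It was thus higher at both times (log2 fold change 0.50, adjusted p = 0.000368, and 0.21, adjusted p = 0.0205), while S100A10 at 24 h was lower. In ΔCRE cells ANXA2 was at 1695 FPKM at 0 h, 2543 and 2386 FPKM at 6 h and 2446 and 2310.0 FPKM at 24 h, and the difference from WT at 24 h did not pass (0.24, adjusted p = 0.0670).

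Among the other partners, ANXA1, a partner of S100A11, fell at 6 and 24 h in WT cells (log2 fold change -0.30, adjusted p = 0.00138, and -0.51, adjusted p = 5.84e-05). ANXA6, an annexin bound by several S100 proteins, rose (0.29, adjusted p = 0.00870, and 0.67, adjusted p = 8.55e-05), as did PPFIBP1, the liprin bound by S100A4 (0.53, adjusted p = 0.000162, and 0.67, adjusted p = 3.55e-05). ANXA11 was lower (-0.26, adjusted p = 0.0330) and the cochaperone STIP1 higher (0.21, adjusted p = 0.0347) at 6 h, and neither passed at 24 h against 0 h. MYH9, the myosin heavy chain bound by S100A4, fell by 0.49 on the log2 scale at 24 h (adjusted p = 0.000401), and AHNAK, the scaffold bound by the S100A10 and annexin A2 complex, fell by 0.24 (adjusted p = 0.0256). The partner of S100A6, CACYBP, had log2 fold changes of 0.04 and 0.17 and did not pass. IL1A, released with the help of S100A13, was below the minimum for testing. It was at 0 and 0.109 FPKM at 0 h and at 1.88 and 2.17 FPKM at 24 h in WT cells. FGF1 did not exceed 0.254 FPKM in any of the 11 libraries.

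From 6 to 24 h, 3 partners were higher and 4 lower in WT cells, and 3 were higher and 3 lower in ΔCRE cells. The shares of all features were 20.5% higher and 26.3% lower in WT cells and 22.1% and 27.5% in ΔCRE cells. ANXA6, AGER (the receptor for several secreted S100 proteins), AHNAK and MYH9 were called in both, the first pair higher and the second pair lower. In WT cells ANXA11 was the other one higher (0.32, adjusted p = 0.0121), with ANXA1 (-0.21, adjusted p = 0.00881) and ANXA2 (-0.29, adjusted p = 0.00626) lower. In ΔCRE cells PPFIBP1 was higher (0.53, adjusted p = 0.000153), with the phosphatase PPP5C (-0.21, adjusted p = 0.0351) lower. AGER was at a low level, between 0.996 and 2.58 FPKM over the 11 libraries.

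Between ΔCRE and WT cells, 2 partners were lower at 6 h, and 1 was lower and 1 higher at 24 h. Of all features, 3.62% were higher and 6.22% lower at 6 h, and 2.35% and 3.97% at 24 h. ANXA6 was at 150.2 and 141 FPKM in ΔCRE against 203 and 197 FPKM in WT at 6 h (log2 fold change -0.46, adjusted p = 0.00543) and was lower at 24 h as well (-0.37, adjusted p = 0.0179). PPFIBP1 was lower at 6 h (-0.33, adjusted p = 0.00977), and ANXA1 was higher at 24 h (0.30, adjusted p = 0.0107). By limma, 0 partners passed at 0 h and 0 in the difference between genotypes of the step from 6 to 24 h, with 2 in each at an unadjusted p under 0.05.

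Of the other 13 S100 genes, S100A3, S100P and S100A5 were tested and the rest were below 1 FPKM in the 11 libraries. S100A3, which lies between S100A4 and S100A2, was at 9.86 and 11.3 FPKM in WT cells at 0 h, 19.6 and 21.3 FPKM at 6 h and 11.2 and 13.3 FPKM at 24 h. It rose at 6 h, opposite to S100A4 beside it (log2 fold change 0.89, SE 0.0998, adjusted p = 0.000187), and had fallen back at 24 h (24 against 6 h, -0.70, adjusted p = 0.000716). In ΔCRE cells it was at 18.5 FPKM in the 1 library at 0 h, 17.6 and 18.8 FPKM at 6 h and 12.96 and 11.5 FPKM at 24 h. It was higher than in WT cells at 0 h (0.76, adjusted p = 0.0226) and fell from 6 to 24 h (-0.54, adjusted p = 0.00245).

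S100P, a member encoded on another chromosome and a ligand of AGER, was at 7.65 and 6.44 FPKM in WT and 14.6 and 16.8 FPKM in ΔCRE cells at 6 h (log2 fold change 1.05, SE 0.18, adjusted p = 0.0101). The ΔCRE values were also above both WT values at 0 h (20.1 against 11.7 and 8.03 FPKM) and 24 h (15.4 and 16.3 against 11.3 and 7.97 FPKM), where the differences did not pass (0.98, adjusted p = 0.0774, and 0.68, adjusted p = 0.0705). S100A5 stayed between 0.791 and 1.76 FPKM.

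Within 1 Mb of the members lie 120 other features, and 47 of them were tested. The 47 include S100A3 and S100A5. S100A3, called above in WT cells at 6 h and in ΔCRE against WT cells at 0 h, is therefore counted again below. In WT cells 17 of the 47 were higher and 5 lower at 24 h against 0 h, beside 26.5% and 28.2% of all features, with a median log2 fold change of 0.12 against -0.02 over all features. At 6 h 8 were higher and 6 lower, beside 23.3% and 21.1% of all features. Between ΔCRE and WT cells 1 was higher at 0 h (1.69% of all features called in either direction), 2 were lower at 6 h (6.22% of all features lower) and, by limma, 0 differed at 24 h (2.35% higher and 3.97% lower). Within the first group of members, S100A10 and S100A11 had log2 fold changes of -0.79 and 0.69 at 24 h in WT cells.

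**Figure D3:**
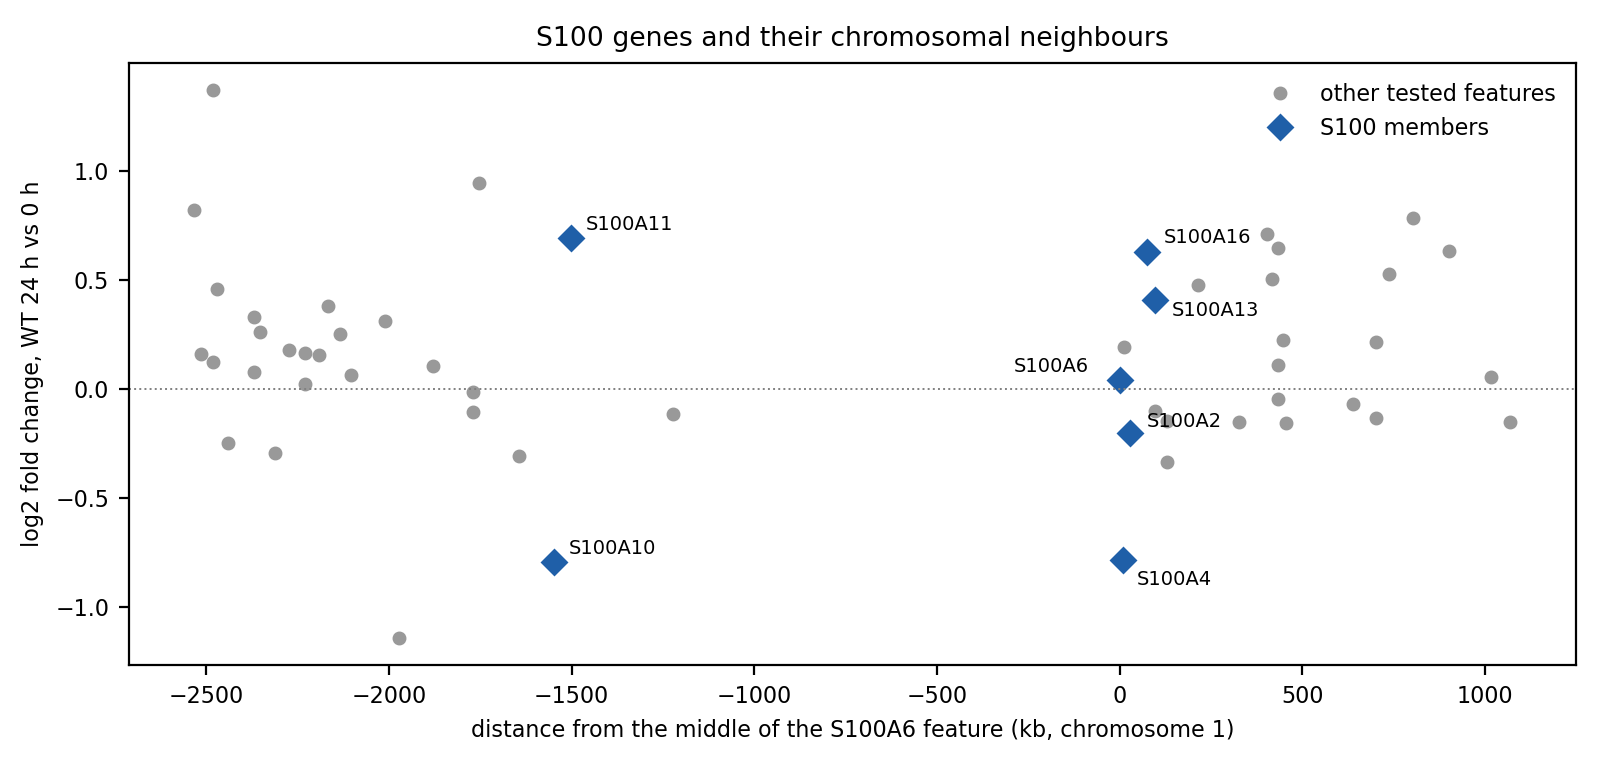
Log2 fold change of WT cells at 24 h against 0 h (vertical axis) for tested features within 1 Mb of an S100 member, against distance in kb from the middle of the S100A6 feature (horizontal axis). Grey circles are 47 other features, S100A3 and S100A5 among them, and blue diamonds are 7 members. Of the members, S100A11 (0.69) and S100A10 (-0.79) lie close on the horizontal and far apart on the vertical axis.

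S100A4 and S100A16 had the widest ranges of group means among the members, 1.64 and 0.82 on the log2 scale. Over the 11 libraries, the features whose log2(FPKM + 1) was most like that of S100A4 were CWF19L1 (Pearson's r = 0.983), ASPH (0.973) and INTS10 (0.966). ASPH, for example, was at 38.9 and 41.2 FPKM in WT cells at 0 h and at 21.0 and 19.7 FPKM in ΔCRE cells at 24 h. For S100A16 they were CD63 (0.989), ATF4 (0.987) and DNAJB2 (0.986), and CD63 went from 392 and 360.0 FPKM in WT cells at 0 h to 691 and 665 FPKM at 24 h. The libraries share 6 conditions, so these correlations describe the order of conditions, with replicates counted as separate points.

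In the library labelled ΔCRE 0 h replicate 1, all 8 members were above each of the other 11 libraries, as were 37.5% of 11676 features with a mean of at least 1 FPKM over the 12 libraries. S100A14 stood at 667 FPKM, 1518 times its highest value elsewhere, and S100A4 at 4717 FPKM, 113 times its highest value elsewhere. The other 6 were at 8971 FPKM (S100A6), 2706 FPKM (S100A11), 2444 FPKM (S100A10), 653 FPKM (S100A13), 516 FPKM (S100A16) and 63.2 FPKM (S100A2), between 1.21 and 5.49 times the highest of the 11. After scaling its FPKM sum to the mean of the others, S100A14 was still 645 times and S100A4 48.0 times as high as in any of them, while S100A13 was 1.04 times as high and S100A16 was at 0.515 of the highest. The 8 members held 1.46% of the FPKM sum there and between 0.463% and 0.586% in the other libraries.

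**Figure D4:**
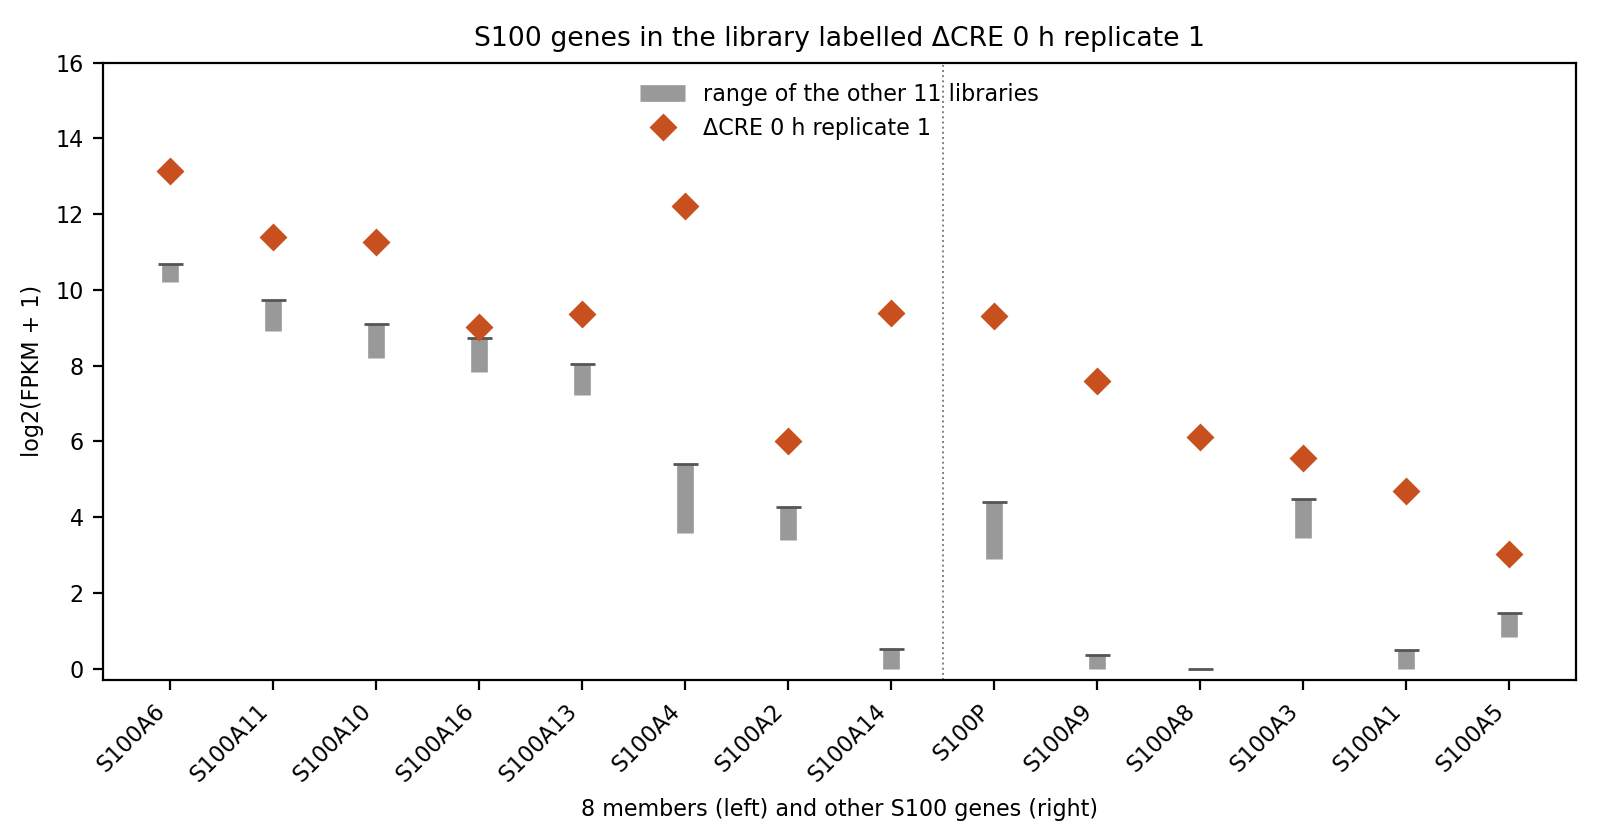
Log2(FPKM + 1) (vertical axis) of the 8 members, left of the dotted line, and 6 other S100 genes, right of it. Orange diamonds are the library labelled ΔCRE 0 h replicate 1 and grey bars span the other 11 libraries, with a dash at the highest value. S100A14, S100A9 and S100A8 are near 0 in the 11 libraries and at 667, 193 and 68.8 FPKM in the one that stands apart.

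Other S100 genes were also high in that library. S100P was at 635 FPKM (20.1 FPKM at most elsewhere), S100A9 at 193 FPKM (0.277 FPKM at most) and S100A8, which pairs with S100A9 in calprotectin of myeloid and inflamed epithelial cells, at 68.8 FPKM (0 in the other 11). S100A1, whose gene lies opposite the S100A13 feature, was at 24.9 FPKM. All 12 genes of an epithelial list were above every other library there, summing to 10838 FPKM against between 720.3 and 1127 FPKM, and 6 of the 12 were under 1 FPKM in each of the 11. EPCAM was at 1139 FPKM against between 2.02 and 3.38 FPKM, and CDH1 was at 52.3 FPKM. CDX2 and VIL1 of the same list, at 0 in the other 11, were at 55.3 and 32.3 FPKM. Of 6 genes that mark the MDA-MB-231 line, 2 were below all 11 libraries (VIM at 1199.5 FPKM and ZEB1 at 0.932 FPKM) and 1 was above (SPARC). The part of these markers in the S100 values was not tested.

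With this library included, the ΔCRE against WT log2 fold change of S100A4 at 0 h was 3.06 (SE 1.91, adjusted p = 0.288) in place of -0.71. By limma over all 12 libraries, 0 of the 7 members tested before passed in any of the 8 comparisons, and the one with an unadjusted p under 0.05 was S100A2 at 0 h (1.36, adjusted p = 0.272). None of the members' calls made over 11 libraries compared ΔCRE cells at 0 h, so adding this library could not change their estimates or direction. It entered only their estimate of the spread.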

How the data were processed

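The authors prepared stranded mRNA libraries, mapped the reads to hg19 with TopHat and deposited FPKM values estimated with Cufflinks. The submitters' processing notes also name FastQC, cutadapt, Bowtie2 and Cuffdiff. The annotation, the strand setting and any scaling between libraries are not given in the sources used here. All 12 columns were used. A pair of column names (for ΔCRE 0 h replicate 2 and ΔCRE 6 h replicate 2) differ from the labels by a character, and they were read as those samples because no other label remained.

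From the deposited FPKM values, log2(FPKM + 1) of the 11256 features with a mean of at least 1 FPKM over 11 libraries (without ΔCRE 0 h replicate 1) was fitted with limma 3.58.1 in R 4.3.3 as 1 model of 6 groups, with a trended prior and Benjamini-Hochberg adjustment over all of them. The script was tested on simulated data. The replicate numbers did not mark shared batches in the labels. Whether same-numbered samples deviate together was checked, and r lay between -0.0676 and 0.202, so no block was used.

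The members and lists were chosen with earlier results of these data known, including the high S100A14 value in the library labelled ΔCRE 0 h replicate 1. All 8 members are named with each library, other S100 genes where they reached 1 FPKM, partners where they passed the test, the 3 features most like each of the 2 members with the widest range, and chromosomal neighbours by counts. 1 gene of the partner list is not reported here. IL1A, FGF1 and CACYBP were named beside their S100 partner whatever their result. The fit was repeated with a smaller pseudocount (0.1), without the filter, with a mean of at least 5 FPKM, with quantile normalization, on TPM, on the compared groups alone, with the replicate block, without the trend, on all 12 libraries and without each library in turn. Promoters were searched with Python 3.11.15. The authors' differential calls were not used here.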

Additional observations from a re-analysis of the deposited data

Results flagged for a closer look

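S100 genes that were low or listed at 0 elsewhere had high values in 1 library, labelled ΔCRE 0 h replicate 1, that entered no comparison over 11 libraries. They were S100A4 (4717 FPKM), S100A14 (667 FPKM), S100P (635 FPKM), S100A9 (193 FPKM), S100A8 (68.8 FPKM) and S100A1 (24.9 FPKM). They are the S100 genes with at least 10 FPKM there and at least 10 times the highest value of the other 11 libraries. The high value of S100A14 in this library was known when the members were chosen, so its place in this list was given in advance. The library is 1 sample, and these excesses were not tested.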

How the results depend on the processing

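Gene by gene, the alternatives were read for the members only. Whether the calls of S100A3, S100P and the partners hold under them was not examined. Of the 20 calls among the members, each kept its direction under every alternative. Changing the filter, the trend, the block or the libraries of groups not compared left these estimates as they were. Their direction could not change there. All 20 stayed past the threshold with a pseudocount of 0.1, a mean of at least 5 FPKM or the replicate number as a block. Without a filter 4 of the 20 were lost, with quantile normalization 1, with TPM 2, in a fit to the groups compared 5 and without the trend 1. S100A4 in WT 24 against 6 h was lost without a filter, with quantile normalization, with TPM and without the trend (adjusted p = 0.0943, 0.106, 0.170 and 0.0562), S100A16 there without a filter (0.0553) and S100A4 in WT 6 against 0 h without a filter (0.0803). S100A11 in WT 24 against 6 h was gained with the block (0.0471). The causes were not tested. With all 12 libraries 0 members passed in WT 6 against 0 h, WT 24 against 0 h, WT 24 against 6 h, ΔCRE 24 against 6 h, and ΔCRE against WT at 6 and 24 h, where 3, 5, 4, 6, 1 and 1 had passed, and S100A4 at 0 h turned to 3.06. Calls over all features fell there as well, from 4993 to 857 in WT 6 against 0 h and from 1107 to 20 in ΔCRE against WT at 6 h. Without a filter 2 members passed in WT 24 against 6 h, beside 5559 of 17700 features. In a fit to the groups compared, 6 passed in WT 24 against 6 h (S100A2 and S100A11 besides the 4), 3 in ΔCRE 24 against 6 h, and 0 in ΔCRE against WT at 6 h and at 24 h. Over all features that fit called 5248, 4707, 364 and 132 in these comparisons, where 5267, 5586, 1107 and 712 had been called. At 24 h against WT, 2 members passed with a mean of at least 5 FPKM (S100A4 and S100A2), and 3 with quantile normalization, with TPM and with the block (S100A4, S100A2 and S100A6). Over all features these settings called 562, 856, 728 and 1407 at 24 h, beside 712 in the main fit. The block also called S100A4 at 0 h (1 member, adjusted p = 0.0482). The replicate numbers are not shown to pair the samples.

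Leaving out 1 library at a time gave between 2 and 3 members for WT 6 against 0 h, 4 and 5 for WT 24 against 0 h, 1 and 4 for WT 24 against 6 h, 2 and 6 for ΔCRE 24 against 6 h, 0 and 1 for ΔCRE against WT at 6 h and 0 and 2 at 24 h, and S100A2 in WT 24 against 0 h lay between -0.46 and 0.057. The S100A6 difference between genotypes in the change from 6 to 24 h was followed separately. It passed under no setting and kept its sign. Of the 28 remaining values of the members that passed under no setting, 19 changed sign under at least 1 alternative. FPKM keeps no fragment number, so what depth limits for S100A14, S100A2 and S100A5 could not be computed.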
